A study of Homo sapiens with 8 samples.

Results

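The chaperone module described here holds 36 genes, 20 that act in or on the endoplasmic reticulum (ER) and 16 cytosolic and mitochondrial heat shock genes. The members were given as a list of symbols, which were matched by Entrez gene identifier, and all 36 were among the 17131 genes of the deposited table. They were measured by RNA sequencing in HaCaT cells, an established line of human keratinocytes described as wild type in the labels. All cultures received M5, which combines 5 cytokines (oncostatin M, TNF-α, IL-1α, IL-17A and IL-22, each at 10 ng/mL) and brings keratinocytes into a state resembling psoriasis, for 24 h. In 1 of the groups the cells were also given OTS514, an inhibitor of the kinase TOPK, at 10 nM from 12 h before M5. Each group had 4 libraries, which carry the titles M5_O5 and M5.

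Library titles and treatment entries disagree on which group received OTS514. Read literally, the title M5_O5 names the inhibitor, but the treatment field of those 4 libraries says that none was given, and the field of the 4 M5 libraries gives the TOPK inhibitor. Groups were therefore compared by title, and higher or lower always means in the M5_O5 libraries relative to the M5 libraries. No unstimulated culture was analysed here. A single cell line was used, the labels do not say whether replicates were separate cultures, and p-values measure only the spread between these libraries. In bulk cultures a change of RNA per cell and a change in the make-up of the cells cannot be told apart.

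Chaperones hold unfolded proteins in a state from which they can fold, and most work in cycles that use ATP and partner proteins. In the ER, the HSP70 protein BiP (HSPA5) binds entering chains, lectin chaperones retain glycoproteins, and disulfide isomerases make and exchange disulfide bonds. Proteins that fail to fold are passed back to the cytosol for degradation, a route called ERAD. When unfolded proteins accumulate in the ER, the sensors IRE1, ATF6 and PERK start the unfolded protein response. ATF6 and the spliced form of XBP1 raise many of the ER members, while unfolded proteins in the cytosol activate HSF1, which raises the inducible heat shock genes. Keratinocytes express both sets at rest, and HSPB1 is known to be abundant in differentiating epidermis.

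Promoter sequences are shown first because they carry the elements through which these factors are known to act. The search covered the 250 bases before the annotated start of each gene on both strands (RefSeq, GRCh38.p14). Windows were found for 33 of the 36 members, with 45 windows in all, and not for DERL1, HSF1 and PDIA3. The ER stress response element (ERSE, the letters CCAAT and CCACG with 9 bases of any kind between them), to which NF-Y with ATF6 or XBP1 is known to bind, was present in 7 of 18 ER members (HSPA5, HSP90B1, CALR, CANX, PDIA6, CRELD2 and XBP1), in 0 of 15 heat shock members and in 0.0916% of 27305 genes. The related ERSE-II (ATTGG and CCACG with 1 base between them) was present in 3 of 18 ER members (HYOU1, SDF2L1 and HERPUD1), 0 of 15 heat shock members and 0.0659% of all genes. The XBP1 and ATF6 motif UPRE (TGACGTGG) was found in 1 of 18 ER members, HYOU1, in 0 of 15 heat shock members and in 0.780% of all genes. Of the ER windows, 3 are printed with the ERSE match in capitals, that of HSPA5 (chr9:125241344-125241593, minus strand), of HSP90B1 (chr12:103930160-103930409, plus strand), which holds 2 matches in opposite orientation, and of CRELD2 (chr22:49918384-49918633, plus strand), with the match on the opposite strand.
HSPA5: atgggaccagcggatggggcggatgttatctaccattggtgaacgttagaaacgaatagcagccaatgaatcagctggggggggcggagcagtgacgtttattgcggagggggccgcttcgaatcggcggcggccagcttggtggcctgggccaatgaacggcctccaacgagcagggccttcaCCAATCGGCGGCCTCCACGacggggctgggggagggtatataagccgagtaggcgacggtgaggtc
HSP90B1: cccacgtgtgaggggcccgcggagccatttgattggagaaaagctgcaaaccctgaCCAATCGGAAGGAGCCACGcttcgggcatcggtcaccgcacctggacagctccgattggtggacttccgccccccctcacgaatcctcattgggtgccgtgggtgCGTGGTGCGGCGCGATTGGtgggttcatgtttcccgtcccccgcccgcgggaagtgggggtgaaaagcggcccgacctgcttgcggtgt
CRELD2: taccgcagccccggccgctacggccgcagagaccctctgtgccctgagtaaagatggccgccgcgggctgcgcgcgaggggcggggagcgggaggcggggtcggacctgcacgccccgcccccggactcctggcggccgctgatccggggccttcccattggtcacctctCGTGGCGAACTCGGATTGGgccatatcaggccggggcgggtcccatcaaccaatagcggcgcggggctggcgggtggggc

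Heat shock elements, the binding motif of HSF1, are repeats of a short GAA unit in alternating orientation. A run of 3 units (GAA, TTC and GAA with 2 bases of any kind between neighbours) was present in 4 of 15 heat shock members (HSP90AA1, HSP90AB1, HSPA8 and HSPD1), in 0 of 18 ER members and in 0.557% of all genes. The shorter run of 2 units (GAANNTTC), which every run of 3 units contains, was present in 10 of 15 heat shock members, in 1 of 18 ER members (CANX) and in 7.05% of all genes. The windows printed are those of HSP90AB1 (chr6:44247693-44247942, plus strand), which holds 2 runs of 3 units, of HSPD1 (chr2:197499841-197500090, minus strand), where 2 runs overlap, and of HSPA1A (chr6:31815293-31815542, plus strand), which holds a run of 2 units. Matches are in capitals. A match is a description of letters in this window and not evidence of binding.
HSP90AB1: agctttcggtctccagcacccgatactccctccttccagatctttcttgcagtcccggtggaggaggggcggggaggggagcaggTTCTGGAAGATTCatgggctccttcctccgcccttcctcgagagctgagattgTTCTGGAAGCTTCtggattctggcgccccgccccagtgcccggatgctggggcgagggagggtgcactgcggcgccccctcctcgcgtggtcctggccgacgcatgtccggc
HSPD1: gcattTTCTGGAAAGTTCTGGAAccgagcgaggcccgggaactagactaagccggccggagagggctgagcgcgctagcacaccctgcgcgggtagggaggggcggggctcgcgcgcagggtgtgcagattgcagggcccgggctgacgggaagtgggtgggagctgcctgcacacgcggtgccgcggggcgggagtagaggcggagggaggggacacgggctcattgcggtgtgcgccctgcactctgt
HSPA1A: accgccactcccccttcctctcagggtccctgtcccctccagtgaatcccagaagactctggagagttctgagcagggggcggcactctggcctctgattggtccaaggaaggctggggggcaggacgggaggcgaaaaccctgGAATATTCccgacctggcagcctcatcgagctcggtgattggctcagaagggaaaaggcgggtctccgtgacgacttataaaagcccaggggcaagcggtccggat

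All 36 members had enough reads to be tested, and 66.7% of them differed between the groups at an adjusted p under 0.05, against a background of 37.1% of the 12434 genes tested. This background holds genes of every level, and a share for genes as abundant as most members was not computed. The members were also chosen with earlier results of these data known, so their share only describes them. Of the members 16 were higher, 8 were lower and 12 were not called, where 19.5% of all genes were higher and 17.6% lower. The differences were small. HSPB8 alone passed a 2-fold threshold, which 3.20% of all genes passed. In 16 members every M5_O5 library lay above every M5 library and in 4 every M5_O5 library lay below, while 17.8% and 15.8% of all genes, or 33.6% together, separated the groups in these ways. Over the members the median log2 fold change was 0.08, and over all genes 0.01. Levels are given as CPM, the estimated counts scaled to library size with TMM normalization, log2 fold changes are given ± standard error, and every adjusted p is from edgeR's quasi-likelihood test over all genes unless another test is named.

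**Figure D1:**
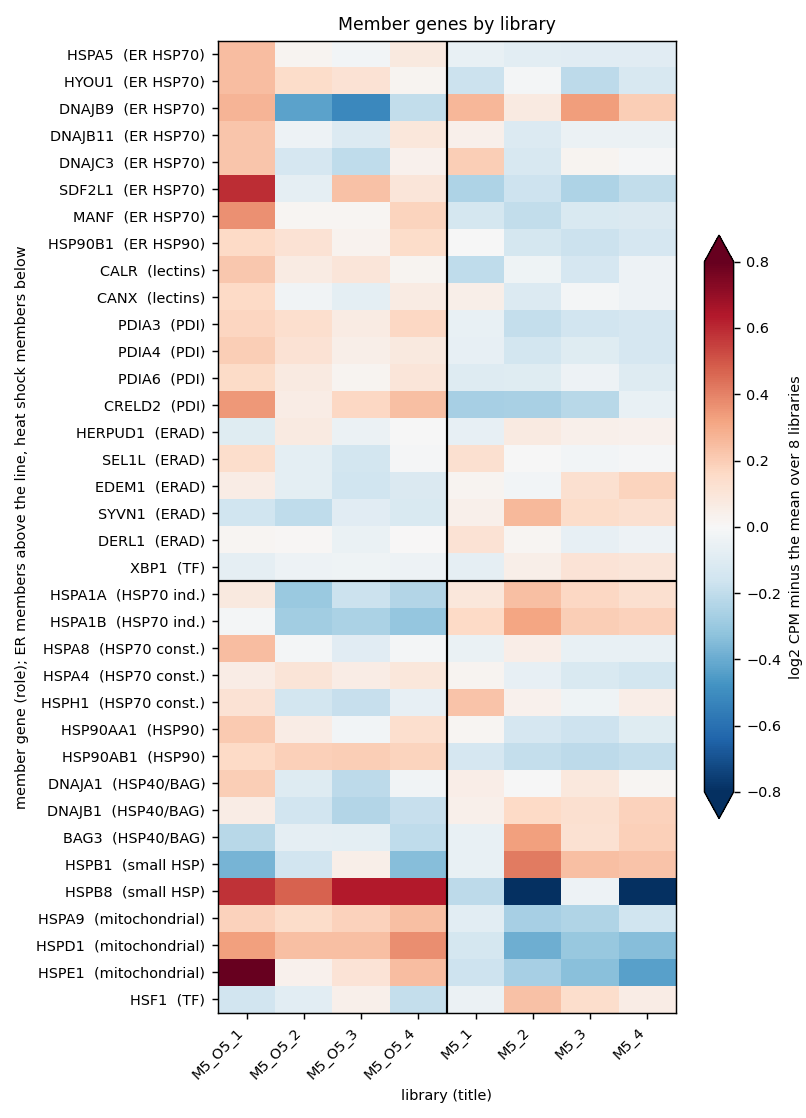
Rows are the 36 members with their role, columns are the 8 libraries, and colour is log2 CPM minus that gene's mean over the 8 libraries (scale limited to 0.8 in either direction). Most ER folding genes are redder in the 4 M5_O5 columns, HSPA1A, HSPA1B, DNAJB1, BAG3 and HSPB1 are redder in the M5 columns, and M5_O5 replicate 1 is the reddest column of its group in 25 of the 36 rows.

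The 8 libraries held 13708055 to 16922693 counts, and the lowest total was that of M5 replicate 1. All 11 keratinocyte markers were tested, from EPCAM (49.7 to 108 TPM, the deposited values scaled by transcript length and library) to KRT14 (4097 to 5723 TPM). Of these markers 2 were higher and 6 were lower in M5_O5, and their summed level was 12196 to 14236 TPM in M5_O5 and 13686 to 14593 TPM in M5. The leukocyte markers PTPRC and CSF3R were at 0 in all libraries, CD14 (44.8 to 54.3 TPM) and CD68 (53.6 to 88.8 TPM) were detected, and the 6 leukocyte markers summed to 109 to 125 TPM in M5_O5 and 123 to 139 in M5. The 6 fibroblast markers summed to 10.3 to 10.8 TPM in M5_O5 and 13.1 to 15.4 in M5, most of it COL1A1. Melanocyte markers summed to at most 1.42 TPM. Endothelial markers summed to 1.14 to 1.52 TPM in M5_O5 and 0.0800 to 0.260 in M5, with CDH5 carrying the higher sum. The part of these marker differences in the results below was not tested. Fold changes also varied with the level of a gene: the smoothed trend over all genes ran from 0.228 at a log2 CPM of 0.0 to -0.171 at 9.5. Many members are abundant, so differences with this trend removed are given where they change a call.

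**Figure D2:**
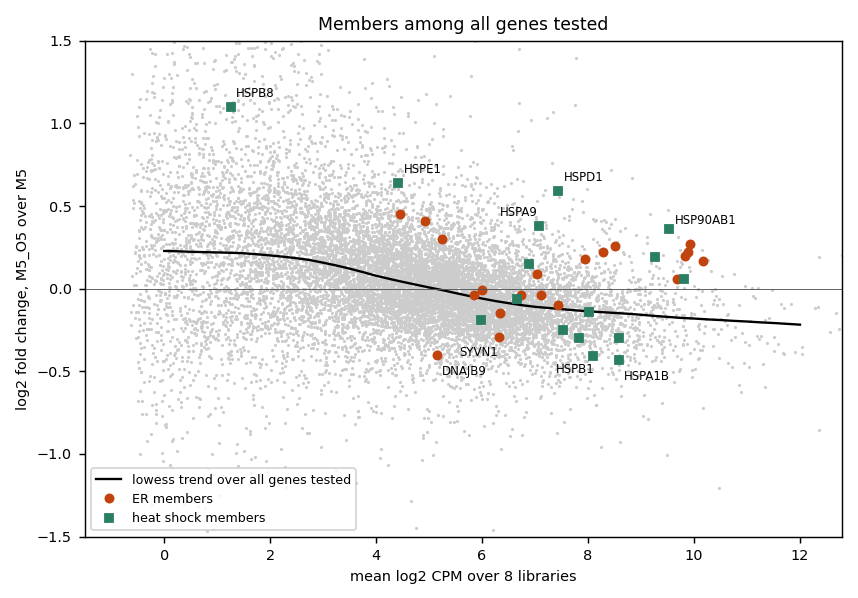
Each grey point is 1 of the genes tested, with mean log2 CPM over the 8 libraries on the horizontal axis and log2 fold change of M5_O5 over M5 on the vertical axis, which is limited to 1.5 in either direction. Most ER members (orange circles) at high expression sit above the black trend line, HSPD1, HSPA9 and HSP90AB1 (green squares) stand clear above it, and HSPA1B and HSPB1 stand below it.

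Among the ER members, most of those for folding were higher in M5_O5. Of the 5 for degradation 0 were called higher and 1 lower, too few genes to tell from the shares of all genes. Of the 20 ER members 9 were higher, 2 were lower and 9 were not called. Over all genes 19.5% were higher and 17.6% lower. The median log2 fold change was 0.13. Upward 10 members separated the groups and downward 1, where 17.8% and 15.8% of all genes did. Summed over the 20 genes, the level was 4198 to 5021 TPM in the M5_O5 libraries and 3428 to 4032 TPM in the M5 libraries. These sums are not scaled by TMM. On log2(TPM + 1) the median log2 fold change of all genes was 0.12, in place of 0.01 with TMM. The library M5_O5 replicate 1 was the highest of its group in 17 of the 20 genes, and without it the median was 0.06.

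HSPA5 encodes BiP, the HSP70 of the ER lumen that binds unfolded chains and holds the stress sensors inactive. Its CPM was 1351, 1157, 1124 and 1202 in M5_O5 replicates 1 to 4 and 1093, 1076, 1069 and 1071 in M5 replicates 1 to 4. Every M5_O5 library was thus above every M5 library (two-sided exact permutation test, p = 0.0286, the smallest that 4 against 4 allows), with M5_O5 replicate 1 the furthest up. The log2 fold change of 0.17 ± 0.06 (adjusted p = 0.0517) did not pass the threshold. The gene passed in 9 of 18 alternatives, among them DESeq2 (0.15, adjusted p = 0.0413), the fits without M5_O5 replicate 3 (0.20, adjusted p = 0.0373) or M5 replicate 1 (0.17, adjusted p = 0.0354), and the fit with the expression trend removed (0.35, adjusted p = 0.000883). Without M5_O5 replicate 1 the log2 fold change was 0.11 (adjusted p = 0.143). The gene rests on 14970 to 23243 reads in a library.

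The partners of BiP moved in different directions. HYOU1, the large HSP70-like protein that exchanges nucleotide on BiP, had 426, 397, 389 and 364 CPM in M5_O5 and 319, 355, 311 and 329 CPM in M5, a log2 fold change of 0.26 ± 0.06 (adjusted p = 0.00443). SDF2L1, which works with BiP and its J-domain partners, had 32.0, 20.2, 25.0 and 22.7 CPM against 17.9, 18.9, 17.9 and 18.5 CPM, a log2 fold change of 0.45 ± 0.12 (adjusted p = 0.00781). The groups did not overlap for either gene, but M5_O5 replicate 1 stood high for SDF2L1, and without it the log2 fold change was 0.30. MANF, a secreted ER protein that binds BiP, was higher in the same way, at 41.6 ± 4.95 CPM (SD, n = 4) against 33.8 ± 0.872 (SD, n = 4), a log2 fold change of 0.30 (adjusted p = 0.00906).

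None of the 3 J-domain members, which deliver clients to BiP and stimulate its ATPase, was called higher. DNAJB9 (ERdj4), which also represses IRE1 through BiP, was lower in M5_O5. It had 41.7, 25.6, 24.1 and 30.1 CPM in M5_O5 and 41.4, 36.3, 43.4 and 39.6 CPM in M5, a log2 fold change of -0.40 ± 0.13 (adjusted p = 0.0295). The groups overlapped because M5_O5 replicate 1 lay among the M5 libraries (exact permutation test, p = 0.114), and without that library the log2 fold change was -0.59. The call was lost when M5_O5 replicate 2, 3 or 4 or M5 replicate 3 or 4 was left out (adjusted p from 0.0562 to 0.0914), and under library-size scaling alone (-0.28, adjusted p = 0.133), where the median of all genes was 0.13. DNAJB11 (136 ± 14.0 against 128 ± 5.24 CPM, log2 fold change 0.09, adjusted p = 0.35) and DNAJC3 (105 ± 14.0 against 107 ± 10.4 CPM, log2 fold change -0.04, adjusted p = 0.775) did not pass (SD, n = 4 each). DNAJB11 passed with the expression trend removed (0.20, adjusted p = 0.0441).

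HSP90B1, the HSP90 of the ER known as GRP94, folds a small set of clients that includes integrins and Toll-like receptors. Its CPM was 1055, 1023, 963 and 1044 in M5_O5 and 941, 856, 839.9 and 861 in M5, with no overlap, a log2 fold change of 0.22 ± 0.06 (adjusted p = 0.00781). Among the lectin chaperones, which hold glycoproteins by their sugar, the soluble CALR had 1049.9, 945, 967 and 918 CPM against 785, 883, 822 and 878 CPM, a log2 fold change of 0.20 ± 0.06 (adjusted p = 0.0187). The call of CALR was lost without M5 replicate 3 (0.19, adjusted p = 0.0626). Its membrane-bound relative CANX overlapped between the groups, at 841 ± 61.0 CPM against 804 ± 35.8 CPM (SD, n = 4 each), a log2 fold change of 0.06 (adjusted p = 0.445) that was 0.24 with the expression trend removed (adjusted p = 0.0105). Of the CANX counts 65.8% came from transcript entries that the table lists as a further placement of the same transcript, as did 31.5% of those of HYOU1.

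The 4 genes of disulfide exchange and oxidative folding were all higher, without overlap between groups. PDIA3, which works with the lectins on glycoproteins, had 1093, 1063, 1012 and 1087 CPM in M5_O5 and 931, 849, 869.9 and 883 CPM in M5. The log2 fold change was 0.27 ± 0.06 (adjusted p = 0.00191). PDIA4 was higher by 0.22 on the log2 scale (333 ± 14.6 against 286 ± 7.53 CPM, SD, n = 4 each, adjusted p = 0.00437) and PDIA6 by 0.18 (250.1 to 274 against 229 to 239 CPM, adjusted p = 0.0134). The PDIA6 call was lost without M5 replicate 4 (0.17, adjusted p = 0.0514). CRELD2, a secreted ER protein that interacts with the isomerases and is known to rise in ER stress, had 37.8, 31.0, 33.3 and 35.2 CPM against 24.7, 24.8, 25.5 and 28.5 CPM, a log2 fold change of 0.41 ± 0.08 (adjusted p = 0.00115). Of the 7 members with an ERSE match, CRELD2, HSP90B1, CALR and PDIA6 were higher, and HSPA5, CANX and XBP1 were not called. A link between a match and a change was not tested.

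Of the 5 genes for ER-associated degradation 1 was lower, 0 were higher and 4 were not called. Over all genes 17.6% were lower and 19.5% higher, and 5 genes are too few to tell these counts from those shares. SYVN1 (HRD1), the ubiquitin ligase at the centre of this route, had 71.0, 68.8, 74.3 and 72.6 CPM in M5_O5 and 81.5, 94.8, 87.7 and 86.4 CPM in M5. Every M5_O5 library was below every M5 library, and the log2 fold change was -0.29 ± 0.06 (adjusted p = 0.00159). On log2(TPM + 1) it was -0.16 and did not pass (limma, adjusted p = 0.0522). EDEM1, which hands mannose-trimmed glycoproteins to degradation, had 76.9 ± 5.22 CPM against 85.3 ± 5.46 CPM (SD, n = 4 each), a log2 fold change of -0.15 (adjusted p = 0.0856) that passed without M5_O5 replicate 1 (-0.20, adjusted p = 0.026). The log2 fold changes of HERPUD1, SEL1L and DERL1, which scaffold or line the ligase complex, lay between -0.04 and -0.01 (adjusted p from 0.615 to 0.872), and their signs turned positive under library-size scaling alone.

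XBP1 encodes the transcription factor that IRE1 switches on. IRE1 cuts a short intron out of the XBP1 messenger RNA in the cytosol, and the shifted reading frame yields the active factor. The total level of XBP1 was 164, 167, 168 and 167 CPM in M5_O5 and 164, 178, 186 and 184 CPM in M5, a log2 fold change of -0.10 ± 0.05 (adjusted p = 0.164) that passed without M5 replicate 1 (-0.13, adjusted p = 0.033). Under library-size scaling alone it was 0.02. The table lists the spliced and the unspliced RefSeq transcripts apart, and they differ by the 26 bases of this intron. In GRCh38 the intron lies at chr22:28796124-28796149 on the minus strand, in exon 4 of the 5 exons of the unspliced transcript (GENCODE release 29), within the coding sequence. The intron is in capitals, with 20 bases on each side.
XBP1 intron: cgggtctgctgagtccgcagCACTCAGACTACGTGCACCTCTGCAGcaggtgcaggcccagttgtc

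The spliced transcript made up a smaller share of XBP1 in M5_O5. Of the estimated counts of both transcripts it held 10.7%, 7.20%, 7.25% and 6.16% in M5_O5 replicates 1 to 4 and 10.9%, 12.5%, 16.5% and 15.1% in M5 replicates 1 to 4. The means were 7.82 ± 1.97% (SD, n = 4) and 13.7 ± 2.54% (SD, n = 4), a difference of -5.92 percentage points (two-sided exact permutation test, p = 0.0286, the smallest possible). The groups met at replicate 1 of each, where the 95% Wilson intervals of 9.59 to 11.9% in M5_O5 and 9.66 to 12.2% in M5 overlapped. The intervals cover counting error only. With any 1 library left out the difference stayed between -6.88 and -4.99 points, with p = 0.0571 by the exact permutation test each time, the smallest that 3 against 4 allows. In CPM, the spliced transcript was at 13.0 ± 3.13 in M5_O5 and 24.6 ± 5.73 in M5, while the unspliced transcript was at 153 ± 4.69 and 153 ± 4.58 (SD, n = 4 each). Both counts were estimated by the authors' program from reads that are mostly shared, since only those over the intron or its junction tell the transcripts apart.

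**Figure D3:**
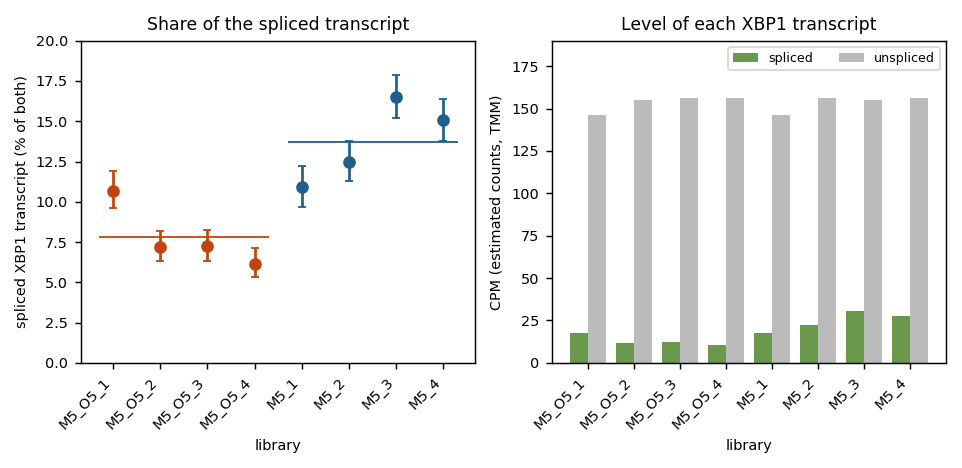
On the left, the spliced transcript as a percentage of both XBP1 transcripts in each library, with 95% Wilson intervals and the group mean as a line; right, CPM of the spliced and unspliced transcript in each library. The share runs from 6.16 to 10.7% in M5_O5 (orange) and from 10.9 to 16.5% in M5 (blue), and the bars of the unspliced transcript stand near 153 CPM in both groups.

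Among the heat shock members the mitochondrial chaperones and both cytosolic HSP90 genes were higher, while both inducible HSP70 genes, DNAJB1, BAG3, HSPB1 and HSF1 were lower. Of the 16 genes 7 were higher, 6 were lower and 3 were not called, where 19.5% of all genes were higher and 17.6% lower. The median log2 fold change was 0.00. Upward 6 genes separated the groups and downward 3, where 17.8% and 15.8% of all genes did. Summed over the 16 genes, again without TMM, the level was 3913 to 4514 TPM in M5_O5 and 3796 to 4128 TPM in M5. M5_O5 replicate 1 was the highest of its group in 8 of them, and without it the median was -0.08. The number called lower depended on the scaling. With the expression trend removed, 8 of the genes were called higher and 1 lower, with a median of 0.14. Under library-size scaling alone 7 were called higher and 3 lower, with a median of 0.12.

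The mitochondrial chaperones, which fold proteins imported into the matrix, were all higher. HSPD1, the HSP60 subunit of the matrix folding chamber, had 213, 201, 200.5 and 219.7 CPM in M5_O5 and 154, 129.8, 138 and 134 CPM in M5. This was a log2 fold change of 0.59 ± 0.06 (adjusted p = 1.01e-05), with the smallest adjusted p of all members. HSPE1, the HSP10 lid of that chamber, had 36, 20.9, 22.0 and 24.3 CPM against 18.2, 17.0, 16.2 and 15.1 CPM, a log2 fold change of 0.64 ± 0.15 (adjusted p = 0.00371). Both genes separated the groups, and they share a promoter region in opposite orientation. HSPE1 stood high in M5_O5 replicate 1, and without that library its log2 fold change was 0.43. HSPA9 (mortalin), the HSP70 that pulls chains through the inner membrane, was at 152, 148, 152 and 158 CPM against 126, 111, 113 and 119.7 CPM, a log2 fold change of 0.38 ± 0.06 (adjusted p = 0.000147). These calls held under every alternative run with the threshold on p alone.

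Cytosolic HSP90 matures kinases and receptors. HSP90AB1, the constitutive form, had 816, 833, 839 and 826 CPM in M5_O5 and 667, 639, 632 and 641 CPM in M5, with standard deviations of 9.86 and 15.1 CPM (n = 4 each). Its log2 fold change was 0.36 ± 0.05 (adjusted p = 9.62e-05). The stress-inducible HSP90AA1 had 708, 639, 603 and 673 CPM against 619, 559, 545 and 572 CPM, so that M5_O5 replicate 3 fell below M5 replicate 1 (exact permutation test, p = 0.0571). The log2 fold change of HSP90AA1 was 0.19 ± 0.06 (adjusted p = 0.0271), and its call was lost without M5_O5 replicate 1 or 4 or M5 replicate 2, 3 or 4 (adjusted p from 0.0678 to 0.0956).

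The inducible HSP70 genes went the other way. HSPA1A and HSPA1B are neighbouring copies that encode nearly the same protein, which refolds damaged proteins after stress. HSPA1A had 404, 311, 339 and 325 CPM in M5_O5 and 407, 451, 428 and 418 CPM in M5, a log2 fold change of -0.30 ± 0.07 (adjusted p = 0.00548). HSPA1B had 373, 311, 317 and 304 CPM against 421, 470.3, 433 and 429 CPM, a log2 fold change of -0.43 ± 0.07 (adjusted p = 0.000293). For both genes every M5_O5 library was below every M5 library, although for HSPA1A the margin between replicate 1 of each group was small. All counts of the pair were listed under further placements of the transcripts, and how reads were divided between copies was not tested. With the copies summed, the log2 fold change was -0.36 (adjusted p = 0.00143). By itself HSPA1A did not pass under library-size scaling alone (-0.19, adjusted p = 0.062) or with the expression trend removed (-0.16, adjusted p = 0.127), and HSPA1B passed in both.

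The constitutive HSP70 proteins carry the everyday folding load. HSPA8 (HSC70) overlapped between groups, at 919 ± 98.5 CPM in M5_O5 and 879.7 ± 34.6 CPM in M5 (SD, n = 4 each). Its log2 fold change was 0.06 (adjusted p = 0.512), -0.01 without M5_O5 replicate 1, and 0.24 with the expression trend removed (adjusted p = 0.0202). HSPA4, a nucleotide exchange factor of the HSP110 family, was higher, at 122, 126, 122 and 125 CPM against 119, 112, 108 and 106 CPM, a log2 fold change of 0.15 ± 0.05 (adjusted p = 0.0387). That call was lost without M5_O5 replicate 2, 3 or 4 or M5 replicate 2, 3 or 4 (adjusted p from 0.0539 to 0.14) and with DESeq2 (0.13, adjusted p = 0.0542). HSPH1 (HSP105) had 247 ± 23.2 CPM against 271 ± 21.5 CPM (SD, n = 4 each), a log2 fold change of -0.14 (adjusted p = 0.152) that passed without M5_O5 replicate 1 (-0.20, adjusted p = 0.0295).

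The cytosolic co-chaperones DNAJB1 and BAG3 were lower with HSPA1A and HSPA1B. DNAJB1 (HSP40), which drives HSP70 in refolding, had 191, 165, 156 and 162 CPM in M5_O5 and 189, 205, 201 and 209 CPM in M5, a log2 fold change of -0.25 ± 0.06 (adjusted p = 0.00695). Its groups overlapped at replicate 1 of each (exact permutation test, p = 0.0571), and it did not pass under library-size scaling alone (-0.14, adjusted p = 0.108) or with the trend removed (-0.13, adjusted p = 0.146). BAG3, which links HSP70 and small heat shock proteins to autophagy, had 192, 213, 212 and 195 CPM against 215, 281, 244 and 256 CPM, without overlap. Its log2 fold change was -0.30 ± 0.07 (adjusted p = 0.00574) and -0.17 with the trend removed (adjusted p = 0.103). DNAJA1, another HSP40, did not pass (98.3 ± 12.3 against 103 ± 2.69 CPM, SD, n = 4 each, log2 fold change -0.06, adjusted p = 0.543).

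The pair of small heat shock proteins, which hold unfolding proteins without using ATP, moved apart. HSPB1 (HSP27) had 208, 242, 278 and 213 CPM in M5_O5 and 258, 359, 318 and 315 CPM in M5, a log2 fold change of -0.41 ± 0.10 (adjusted p = 0.00581). M5_O5 replicate 3 lay above M5 replicate 1 (exact permutation test, p = 0.0571), and with the trend removed the value was -0.27 (adjusted p = 0.0562). HSPB8, which works with BAG3, had 3.02, 2.81, 3.14 and 3.15 CPM against 1.75, 0.980, 1.97 and 0.997 CPM, a log2 fold change of 1.10 ± 0.22 (adjusted p = 0.0014), or 2.14-fold. It separated the groups but rests on 15 to 53 reads in a library. By length-scaled level it was the scarcest member, at 3.22 ± 0.237 TPM in M5_O5 and 1.40 ± 0.546 TPM in M5, where HSPB1 was at 838 ± 100.2 and 1019 ± 76.1 TPM (SD, n = 4 each).

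HSF1, the transcription factor that raises the inducible genes, had 56.5, 59.3, 64.8 and 55.1 CPM in M5_O5 and 60.8, 73.9, 69.4 and 65.4 CPM in M5. The groups overlapped (exact permutation test, p = 0.0571). The log2 fold change of -0.19 ± 0.07 (adjusted p = 0.0452) was the member call nearest to the threshold, and it was lost without M5_O5 replicate 1, 2 or 4 or M5 replicate 2, 3 or 4 (adjusted p from 0.0704 to 0.136), under library-size scaling alone (-0.08, adjusted p = 0.374) and with the trend removed (-0.13, adjusted p = 0.17). Of the HSF1 counts 38.7% came from a further placement of a transcript. The activity of HSF1, which is set by phosphorylation and trimer formation, was not measured.

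**Figure D4:**
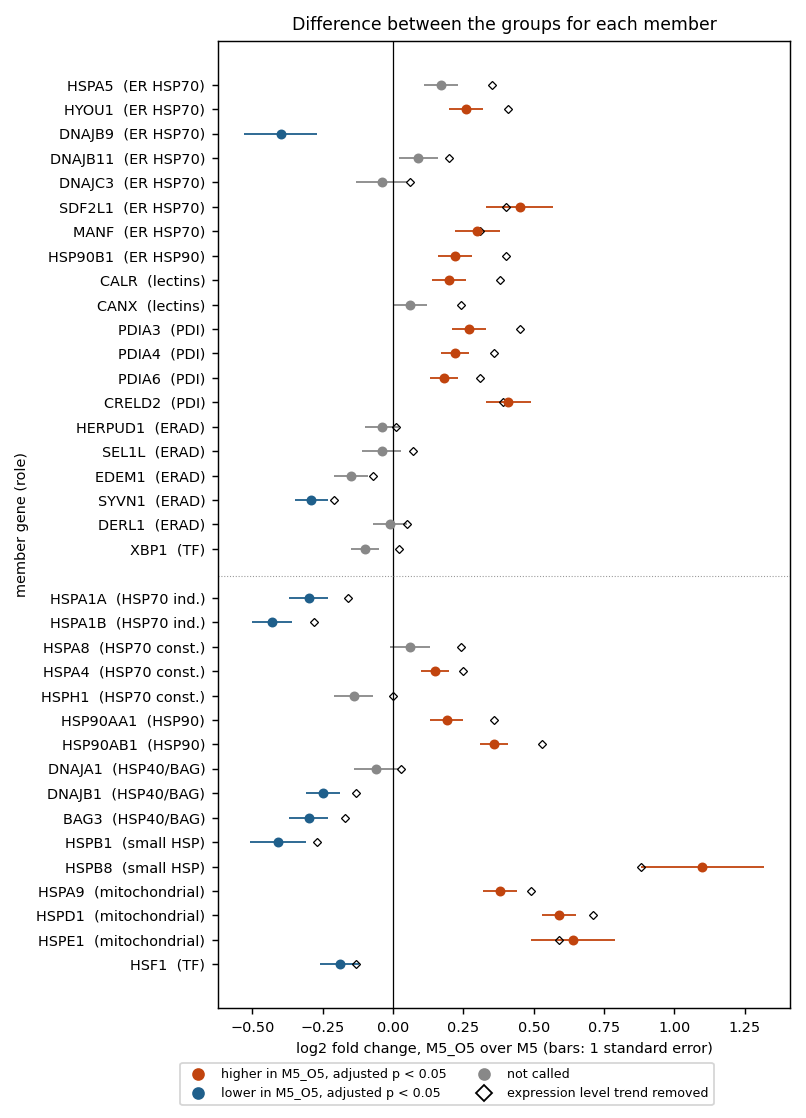
Filled circles give the log2 fold change of M5_O5 over M5 for each member with 1 standard error, coloured by the call at an adjusted p under 0.05, and open diamonds give the value with the trend on expression level removed. Most diamonds lie to the right of their circle, HSPB8, HSPE1 and HSPD1 are furthest right, and HSPA1B, HSPB1 and DNAJB9 are furthest left.

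For 8 members the values of the single libraries were set beside the spread. HSP90AB1, HSPD1 and PDIA3 had tight groups well apart, with standard deviations of at most 37.1 CPM. HSPA5 and HSPA1B had 1 high library in M5_O5, replicate 1. In BAG3 the spread was wider in M5 (SD 27.2 CPM) than in M5_O5 (SD 10.9 CPM, n = 4 each), and M5 replicate 1 at 215 CPM lay closest to the M5_O5 libraries. M5 replicate 1 was also the highest of its group in 16 of the 36 members and the lowest in 12.

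**Figure D5:**
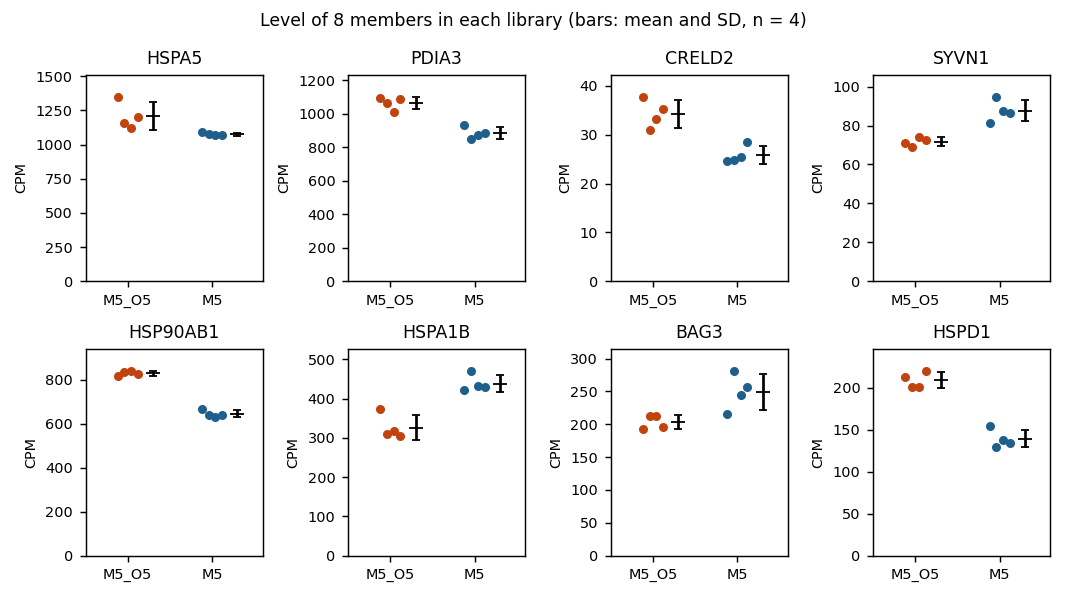
Each point is the CPM of 1 library, with the group mean and SD (n = 4) beside the points and each vertical axis starting at 0. The groups do not overlap in any of the 8 genes, with M5_O5 higher in HSPA5, PDIA3, CRELD2, HSP90AB1 and HSPD1 and lower in SYVN1, HSPA1B and BAG3.

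Other genes of the same pathways were taken from general lists, and their counts are read against the 37.1% of all genes that were called (19.5% higher, 17.6% lower). These lists, like the members, were chosen with earlier results of these data known, so the shares only describe them. Of 22 other ER folding genes 6 were higher and 2 were lower (median 0.03), and the 36.4% called was near that background. PRDX4, a peroxidase that passes oxidizing power to the isomerases, rose most, from 20.8 ± 0.727 CPM in M5 to 36.1 ± 2.33 in M5_O5 (SD, n = 4 each, log2 fold change 0.80, adjusted p = 2.61e-06). DNAJC10, a J-domain protein that reduces disulfides, was higher by 0.45 (adjusted p = 0.000497), and SIL1, a nucleotide exchange factor of BiP, by 0.43 (adjusted p = 0.00115). Of 18 other ER degradation genes tested 1 was higher and 6 were lower (median -0.08). The 38.9% called was again near the background for either direction, and 11 genes were not called. Of the 7 called genes 6 were lower, where 2192 of the 4612 genes called over all genes were. The gene that was higher was RNF5, a membrane ubiquitin ligase (0.47, adjusted p = 0.0022), and SELENOS (-0.27, adjusted p = 0.00407), which tethers the extraction machinery, was among the lower. AUP1, another of them (-0.23, adjusted p = 0.0304), lost its call without M5_O5 replicate 2, 3 or 4 or M5 replicate 2, 3 or 4 (adjusted p from 0.0517 to 0.111). With the trend removed, 2 genes of the list were called in place of 7, while over all genes 2015 were called higher and 1695 lower in place of 2420 and 2192.

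Of 13 genes for translocation into the ER 1 was higher and 3 were lower (median -0.06), so that 30.8% were called, and with the trend removed 1 was called in place of 4. The membrane anchor of the signal recognition particle receptor, SRPRB, was higher by 0.52 (adjusted p = 0.000231), while its partner SRPRA was lower by 0.20 on the log2 scale (adjusted p = 0.013) and lost the call without M5 replicate 4 (adjusted p = 0.0536). SSR2 of the translocon had a log2 fold change of -0.24 (adjusted p = 0.014) and lost the call without M5_O5 replicate 4 (adjusted p = 0.0501). Of 14 stress sensors and genes of the PERK arm, 3 were higher and 0 were lower, so that 21.4% were called, below the share of all genes. The sensor genes ERN1 (IRE1), ATF6 and EIF2AK3 (PERK) were not called. The activity of these sensors was not measured, and whether PERK acted on the called genes was not tested. CHAC1, which degrades glutathione, had 3.49, 21.6, 23.5 and 13.3 CPM in M5_O5 and 2.77, 3.33, 3.29 and 2.55 CPM in M5, a log2 fold change of 2.37 ± 0.43 (adjusted p = 0.000772). DDIT3 (CHOP), the stress transcription factor, had 22.3, 47.1, 47.1 and 43.6 CPM against 21.7, 24.6, 27.0 and 24.7 CPM, a log2 fold change of 0.71 (adjusted p = 0.00634). The pseudokinase TRIB3 was likewise lowest in replicate 1 among the M5_O5 libraries, with 55.6 CPM there and 78.0 to 109.8 CPM in the other M5_O5 libraries against 44.6 to 62.5 CPM in M5 (log2 fold change 0.63, adjusted p = 0.0089). In all 3 genes M5_O5 replicate 1, the library in which ER members were mostly highest, was the lowest of its group and close to the M5 libraries. All 3 kept their call without it, at 2.70, 0.91 and 0.80.

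Of 26 other cytosolic chaperones tested 7 were higher and 5 were lower (median 0.06), or 46.2% called. BAG2, an inhibitor of HSP70-linked ubiquitination, was higher by 1.37 (3.19 ± 0.643 against 1.24 ± 0.367 CPM, SD, n = 4 each, adjusted p = 0.000328), and HSPA4L, a relative of HSPA4, by 0.69 (adjusted p = 0.00139). HSPA6, a strictly inducible HSP70, was lower, at 1.40 ± 0.481 CPM against 2.48 ± 0.887 CPM (SD, n = 4 each), with overlap (log2 fold change -0.83, adjusted p = 0.0295), and lost its call without M5_O5 replicate 1, 3 or 4 or M5 replicate 4 (adjusted p from 0.054 to 0.137). Without M5 replicate 4 its log2 fold change was -0.54. The chaperonin CCT and its partner prefoldin, which fold actin and tubulin, had 8 of 14 genes higher and 0 lower (median 0.19, 57.1% called), led by CCT5 (0.35, adjusted p = 0.000203) and CCT2 (0.35, adjusted p = 0.000423). VBP1, a prefoldin subunit (0.32, adjusted p = 0.0327), lost its call without M5_O5 replicate 1 or 4 or M5 replicate 2, 3 or 4 (adjusted p from 0.0778 to 0.104). Of 13 other mitochondrial chaperones and proteases 5 were higher and 0 were lower (median 0.13). The 38.5% called was near the background for either direction. All 5 calls were upward, so 38.5% of the list was higher, where 19.5% of all genes tested were. Among the 4612 genes called over all genes, 2420 were higher. TRAP1, the mitochondrial HSP90, had 35.1 ± 3.92 CPM against 19.4 ± 0.674 CPM (SD, n = 4 each, log2 fold change 0.86, adjusted p = 5.69e-06), and TIMM44 and GRPEL2, which work with HSPA9 at the import channel, were higher by 0.60 (adjusted p = 0.000153) and 0.48 (adjusted p = 0.00178).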

How the data were processed

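The data were 8 RNA sequencing libraries of HaCaT cells, 4 titled M5_O5 and 4 titled M5. Per the study's methods, the authors mapped filtered reads with HISAT2 2.1.0 and counted them with StringTie 2.1.5. The submitters' processing notes also name Bowtie2 2.2.5, RSEM 1.2.8 and a mouse build, so the human build is not given in the sources used here. For each transcript the authors deposited a raw estimated count, with TPM, which scales each library to a fixed sum, and FPKM, which divides the authors' counts by length and library size. FPKM was not used here. The table lists 86639 transcripts, 4181 of them a second or later placement, and 53.8% of the estimated counts were fractional. Columns holding the authors' group means were not used.

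Counts were summed per Entrez gene to 17131 genes and rounded. RefSeq (GRCh38.p14) gave symbols for 17072 of the identifiers. The edgeR filter filterByExpr (minimum count 10) kept 12434 genes. These were scaled by TMM and compared with edgeR's quasi-likelihood test (edgeR 4.0.16, R 4.3.3) over all 8 libraries, with Benjamini-Hochberg adjustment over all genes and a call at an adjusted p under 0.05. The biological coefficient of variation was 7.42%. Totals ranged from 13708055 to 16922693 counts per library. Single values were compared with two-sided exact permutation tests over libraries. TPM values were used for levels and, as log2(TPM + 1) and log2(TPM + 0.1), for limma 3.58.1. DESeq2 1.42.0, other scalings and filters, a lowess trend on expression level (span 0.3) subtracted from each gene's difference, and each library left out in turn were alternatives. On simulated counts for 12434 genes of this comparison, 82 of 89 genes changed 2-fold and 111 of 111 changed 4-fold were recovered, and 11 of 12234 unchanged genes were called. The simulation held no smaller changes and no trend on expression level. Calls of differences under 2-fold, which nearly all members show, were therefore not tested by it. Replicates differed by more than sampling noise and were all counted. The mean chi-square per gene between M5 libraries was 10.37 to 16.53 for pairs with replicate 1 and 2.02 to 4.06 for other pairs. Between M5_O5 libraries it was 7.18 to 11.19 with replicate 1 and 3.03 to 7.18 without it. Leaving out M5 replicate 1 gave 2872 genes higher and 2504 lower, in place of 2420 and 2192. Leaving out M5_O5 replicate 1 gave 2249 and 2108. Counting is not stated to use strand, so reads of antisense or overlapping genes cannot be told apart. Promoter windows were taken from RefSeq (GRCh38.p14) and the XBP1 intron from GENCODE release 29 (GRCh38).

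The members and the other lists were chosen with earlier results of these data known. All members are named. From each other list, at most 3 called genes with the largest absolute log2 fold change and a mean of at least 1 CPM are named, besides the sensor genes ERN1, ATF6 and EIF2AK3, which were named after their values were seen.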

Additional observations from a re-analysis of the deposited data

Results flagged for a closer look

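Each member, and the share of spliced XBP1, was checked in each group for a library far from the other 3, which gave 74 groups. In 4 groups a library stood apart by Dixon's test of the gap over the range, where chance alone gives about 1 in 20 groups, or 3.70 here. PDIA6 was at 239 CPM in M5 replicate 3, against 229 to 230.3 CPM in the other M5 libraries, which was still below every M5_O5 library. SEL1L was at 151 CPM in M5 replicate 1, against 136 to 138 CPM. HSPA8 was at 932 CPM in M5 replicate 2, against 861 to 865 CPM. DERL1 was at 61.4 CPM in M5_O5 replicate 3, against 63.8 to 64.2 CPM, a gap that is small in absolute terms.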

How the results depend on the processing

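With library size as the only scaling, with limma on log2(TPM + 1) and with limma on log2(TPM + 0.1), the median log2 fold change of all genes was 0.13, 0.12 and 0.13 in place of 0.01, and upward differences gained. Under these 3 settings in turn, the ER members called lower numbered 1, 0 and 0 in place of 2, the heat shock members called lower 3, 3 and 3 in place of 6, the median of the ER members was 0.24, 0.24 and 0.25 in place of 0.13, and that of the heat shock members 0.12, 0.12 and 0.12 in place of 0.00. Over all genes, library size alone called 3858 genes higher and 1008 lower, limma 3261 and 761 on log2(TPM + 1) and 3264 and 768 on log2(TPM + 0.1), against 2420 and 2192. With the expression trend removed, 2015 genes were called higher and 1695 lower, the medians were 0.27 and 0.14, 12 ER members were called higher in place of 9, 1 heat shock member was called lower, the other ER folding list had 10 called genes in place of 8, and the other ER degradation and translocation lists had 2 and 1 called genes in place of 7 and 4. Under these 4 settings in the same order, the signs of members that were not called turned: DNAJC3 to 0.08, 0.08, 0.08 and 0.06, HERPUD1 to 0.08, 0.08, 0.08 and 0.01, SEL1L to 0.07, 0.10, 0.10 and 0.07, DERL1 to 0.10, 0.11, 0.11 and 0.05, XBP1 to 0.02, 0.03, 0.03 and 0.02, and DNAJA1 to 0.05, 0.05, 0.05 and 0.03. The cause was not tested. Both limma fits also ended the calls of DNAJB9, SYVN1, HSPA1A, DNAJB1 and HSF1 (adjusted p from 0.0522 to 0.21), DESeq2-type size factors and the fit with no count filter ended that of HSPA4 (adjusted p = 0.0566 and 0.0658), and a minimum of 10 counts in every library that of HSF1 (adjusted p = 0.0535). With a 2-fold threshold added, 0 ER members were called in either direction, 1 heat shock member was higher and 0 lower, and the other lists held 0 (ER folding), 0 (ER degradation), 0 (translocation), 1 (PERK arm), 1 (cytosolic), 0 (CCT) and 0 (mitochondrial) called genes. With HSPA1A and HSPA1B summed the heat shock median was 0.06. With each library left out in turn, the ER members called higher ranged from 8 to 10 and lower from 1 to 3, their median from 0.06 to 0.17, the heat shock members called higher from 5 to 7 and lower from 5 to 6, their median from -0.08 to 0.05, and the spliced XBP1 difference from -6.88 to -4.99 points (p = 0.0571 each, exact permutation test). Left-out signs also turned for DNAJC3 (-0.12 to 0.03), DERL1 (-0.04 to 0.02) and HSPA8 (-0.01 to 0.10).

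Replicate numbers were shared between groups. Deviations of same-numbered libraries had correlations of 0.209, 0.099, -0.004 and 0.013, and those of differently numbered libraries ran from -0.201 to 0.206. The numbers were not used to pair the libraries, and whether same-numbered libraries, such as replicate 1 of each group, shared conditions was not tested. With the replicate number as a block, 2703 genes were higher and 2552 lower, 34 members kept their side of the threshold, and HSPA5 (0.16, adjusted p = 0.0183) and HSPH1 (-0.14, adjusted p = 0.0244) passed. With 4 libraries a group, exact permutation tests cannot go below 0.0286. Depth limits HSPB8, HSPA6 and BAG2, each at about 1 to 4 CPM.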
